A study of Homo sapiens with 4 samples.

Results

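The miR-99/100 and miR-125a/b families were followed through 4 small RNA libraries of colorectal cancer cells. The 7 miRNAs described are hsa-miR-99a-5p, hsa-miR-99b-5p, hsa-miR-99b-3p, hsa-miR-100-5p, hsa-miR-125a-5p, hsa-miR-125a-3p and hsa-miR-125b-5p, taken by name; the prefix is left out below. They are 7 of 2080 miRNA names in the series and 7 of the 1882 names found in all 4 files. The lines were HT29 and HCT15, both established human colorectal adenocarcinoma lines. Parental HT29 cells grew in DMEM and parental HCT15 cells in RPMI, each with 10% FBS. Spheres of both lines were expanded in DMEM-F12 carrying N2 Plus, with bFGF and EGF each at 10 ng/ml, and are labelled by the submitters as sphere-derived cancer stem cells. Penicillin-streptomycin was present in all 4 cultures. Each line and culture had 1 library, so no library had a replicate and no difference within a line could be tested. Differences between the lines were not tested either, because their files were deposited in different units.

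The HT29 libraries held 5806540 listed reads (parental) and 12794274 (spheres). The HCT15 files held RPKM that corresponded to 3189984 reads in parental cells and 2325418 in spheres. Levels are given in CPM, reads scaled to 1000000 listed miRNA reads in each library, with no correction for length, since a read covers the whole mature miRNA. Ligation and amplification can favour some sequences, which was not tested and bears on levels set side by side between miRNAs. Intervals are 95% intervals for counting error only, because PCR reads without molecular identifiers are not independent molecules. The 6 markers of intestinal epithelium summed to 141899.6 and 214179 CPM in HT29, parental cells first, and to 17166 and 14757 in HCT15. The HT29 sums were led by miR-192-5p. In HCT15 they were led by miR-375, which went the other way, at 896 and 2424 CPM in HT29 and 10451 and 7538 in HCT15. The rest were higher in HT29 in both cultures. The 4 stromal markers summed to 6.72 to 20.4 CPM over the libraries, with miR-214-3p listed at 0 in all 4 and miR-145-5p at 0.172 CPM in HT29 parental cells and at 0 in the other 3. The 3 muscle markers summed to 166 and 1159 CPM in HT29, almost all of it miR-1, and to 0 in HCT15. The 4 blood markers summed to 386 and 370.2 CPM in HT29, led by miR-142-3p, and to 45.2 and 36.6 in HCT15. The HCT15 sums were led by miR-486-5p, which went the other way. It was at 3.27 and 2.501 CPM in HT29 and at 42.9 and 34.8 in HCT15. Blood marker miR-223-3p was listed at 0 in all 4 libraries. Endothelial miR-126-3p was at 132 and 147 CPM in HT29 and 12.2 and 8.60 in HCT15. The 2 neural markers summed to 8.25 to 13.9 CPM.

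A primary miRNA transcript is cut by Drosha into hairpins and each hairpin by Dicer into a 5p and a 3p strand, of which 1, the guide, usually persists in Argonaute while the other is degraded. In mammals the miR-99/100, let-7 and miR-125 families lie together in a set of ancient clusters, and miR-125a/b are relatives of the worm developmental timing miRNA lin-4. miR-99 and miR-100 are known for repressing components of mTOR signalling, and miR-125b for repressing pro-apoptotic genes. The host transcript of miR-100 and miR-125b-1, MIR100HG, has been linked to cetuximab resistance in colorectal cancer cells.

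All 7 names, and the 9 of the other 10 strands of the same transcripts that were in all 4 files, had a mature sequence in RefSeq (GRCh38.p14). The mature sequences are printed 5′ to 3′ with the seed, bases 2 to 8, in capitals, because the seed divides the members into the pools compared here.

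miR-99a-5p: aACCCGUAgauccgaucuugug

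miR-100-5p: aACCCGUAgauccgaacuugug

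miR-99b-5p: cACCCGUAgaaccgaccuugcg

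miR-125a-5p: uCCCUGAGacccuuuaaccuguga

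miR-125b-5p: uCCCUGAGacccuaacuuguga

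miR-99b-3p: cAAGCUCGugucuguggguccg

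miR-125a-3p: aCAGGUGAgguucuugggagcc

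The seed ACCCGUA was shared by miR-99a-5p, miR-99b-5p and miR-100-5p, and the seed CCCUGAG by miR-125a-5p and miR-125b-5p. Counting positions from 1 at the 5′ end, miR-100-5p differs from miR-99a-5p only by U16A, so reads that end early or carry an error there could be assigned to either. miR-99b-5p differs from miR-99a-5p by A1C, U11A, U16C and U21C. miR-125a-5p has 24 bases and miR-125b-5p 22, and they share their first 13. Among all human miRNAs of the RefSeq table, 1 further miRNA had the miR-125a/b seed, miR-4319, and it was listed at 0 in all 4 libraries. The seed of miR-99b-3p was shared by miR-99a-3p, also listed at 0 in all 4, and that of miR-125a-3p by no other miRNA.

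On GRCh38, MIR99B, MIRLET7E and MIR125A lie on the plus strand of chromosome 19 between 51692612 and 51693339, within 728 bases, in an intron of SPACA6. MIR99A, MIRLET7C and MIR125B2 lie on the plus strand of chromosome 21 between 16539089 and 16590311, within 51223 bases, in introns of the long noncoding RNA gene MIR99AHG; for MIR125B2 these are the outer ends of its mature strands, not of the hairpin. MIR100, MIRLET7A2 and MIR125B1 lie on the minus strand of chromosome 11 between 122099757 and 122152308, within 52552 bases, in introns of MIR100HG. Host genes are those of GENCODE 29. miR-125b-5p is made from both the chromosome 21 and the chromosome 11 hairpin and cannot be assigned to either.

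The MIR99B/MIR125A transcript gave most of the reads of both families in all 4 libraries. Its leading strand, miR-99b-5p, reached 11988 CPM in parental HT29, 14606 in HT29 spheres, 8356 in HCT15 parental cells and 5467 in HCT15 spheres. It ranked 19th, 15th, 22nd and 28th of the 1882 shared names in these libraries. miR-125a-5p stood at 2079 (parental) and 1273 CPM (spheres) in HT29, and at 5735 and 8724 in HCT15. Both HT29 libraries thus held more miR-99b-5p than miR-125a-5p, as did HCT15 parental cells, whereas HCT15 spheres held more miR-125a-5p. The 3p strands were scarcer. miR-99b-3p was at 307 and 362 CPM in HT29 and at 345 and 265 in HCT15, parental cells first. miR-125a-3p was at 32.9 and 25.2 CPM in HT29 and at 140.1 and 107 in HCT15.

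The members of the chromosome 21 and chromosome 11 clusters were low in HT29 and moderate in HCT15. miR-99a-5p was at 20.0 CPM in HT29 parental cells (116 reads), 37.8 in HT29 spheres (484 reads), 564 in HCT15 parental cells (1800.5 inferred reads) and 529.8 in HCT15 spheres (1232 reads). miR-100-5p was at 34.1, 59.6, 665 and 647 CPM in the same order of libraries. Both HCT15 levels lay above both HT29 levels for each of these miRNAs, and miR-100-5p exceeded miR-99a-5p in every library with intervals that did not overlap. miR-125b-5p was the least abundant member in HT29, at 7.92 CPM in parental cells (46 reads, interval 5.80 to 10.6) and 10.2 in spheres (130 reads, interval 8.49 to 12.1). In HCT15 it was at 271 and 329 CPM in parental cells and spheres.

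From highest to lowest, the order in HT29 parental cells was miR-99b-5p, miR-125a-5p, miR-99b-3p, miR-100-5p, miR-125a-3p, miR-99a-5p and miR-125b-5p. The intervals of neighbours overlapped there for 1 pair, miR-100-5p (29.5 to 39.2) and miR-125a-3p (28.4 to 37.9). In HT29 spheres miR-99a-5p stood above miR-125a-3p. In HCT15 parental cells the order was miR-99b-5p, miR-125a-5p, miR-100-5p, miR-99a-5p, miR-99b-3p, miR-125b-5p and miR-125a-3p. In HCT15 spheres miR-125a-5p came first, and miR-125b-5p stood above miR-99b-3p.

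**Figure D1:**
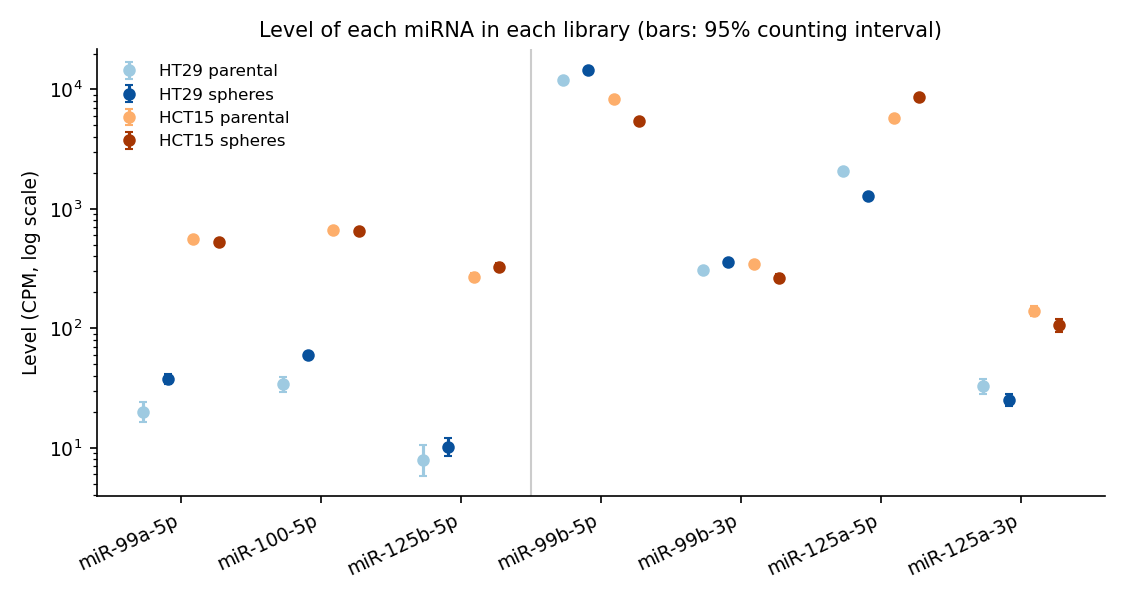
Level of each of the 7 miRNAs in each library, in CPM on a log axis, with 95% counting intervals; miRNAs left of the grey line come from the chromosome 11 and 21 clusters and those right of it from MIR99B/MIR125A. The 3 on the left lie between 7.92 and 59.6 CPM in HT29 and between 271 and 665 in HCT15.

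The difference between the lines was largest for those 3 miRNAs. After TMM scaling, which sets libraries against each other by the bulk of their miRNAs, the log2 ratio of HT29 to HCT15 for miR-125b-5p was -5.30 in parental cells (interval -5.84 to -4.95) and -5.04 in spheres (-5.35 to -4.80), or 39.4-fold and 32.8-fold lower in HT29. For miR-99a-5p it was -5.07 in parental cells and -3.85 in spheres, and for miR-100-5p -4.55 and -3.49. miR-125a-5p was lower in HT29 by less, at -1.75 and -2.83, as was miR-125a-3p, at -2.36 and -2.13. miR-99b-5p was the exception, at 0.24 in parental cells and 1.36 in spheres, so it was higher in HT29 in both cultures. miR-99b-3p was lower in HT29 parental cells (-0.45) but higher, at 0.79, with the HCT15 values as deposited, and higher in HT29 spheres (0.40).

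Thus 5 of 7 members were at least 2-fold higher in HCT15 in both cultures and 0 were at least 2-fold higher in HT29 in both. Among the 239 miRNAs that averaged 50 CPM or more over the 4 libraries, 28.5% met the first criterion and 38.5% the second. In single cultures, 33.1% were at least 2-fold higher in HCT15 in parental cells and 33.1% in spheres, and 44.4% and 43.1% were at least 2-fold higher in HT29. With the HCT15 values as deposited, the first count was 4 and the second 1. The sign of each of the 5 was the same under every scaling tried; for miR-125a-5p the smallest difference was -0.51, with the HCT15 values as deposited. The files of the lines were deposited in different units, so the line and the handling of its files cannot be told apart. The 4 stromal markers mark cells known to be rich in miR-99a, miR-100 and miR-125b. They summed to 20.4 and 15.2 CPM in HCT15 and to 6.72 and 7.35 in HT29. Of these only miR-199a-3p was higher in HCT15 in both cultures, at 15.8 and 13.9 CPM against 2.76 and 1.25. miR-143-3p was at 4.64 and 1.27 CPM in HCT15 and at 3.79 and 6.10 in HT29. The part of the stromal markers in the line difference was not tested.

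Within the miR-99/100 seed pool, a share that needs no scaling between libraries, miR-99b-5p took 99.6% of reads in HT29 parental cells and 99.3% in spheres. In HCT15 it took 87.2% and 82.3%. miR-100-5p took 0.283% and 0.405% in HT29 and 6.94% and 9.74% in HCT15, and miR-99a-5p 0.166% and 0.257% in HT29 and 5.89% and 7.97% in HCT15. In both lines the shares of miR-99a-5p and miR-100-5p were thus higher in the sphere library, with intervals that did not overlap those of parental cells. miR-125b-5p took 0.380% and 0.792% of the miR-125a/b seed pool in HT29, and 4.62% and 3.73% in HCT15, so its share was higher in spheres of HT29 and lower in spheres of HCT15. With the 3p strands included, the HCT15 shares were 9.86% and 6.69%.

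The miR-99/100 pool summed to 12042 CPM (parental) and 14703 (spheres) in HT29, and to 9586 and 6644 in HCT15. The miR-125a/b pool summed to 2087 and 1284 CPM in HT29 and to 6006 and 9053 in HCT15. The ratio of the first pool to the second was 5.77 in parental HT29 cells and 11.5 in their spheres, and 1.60 in HCT15 parental cells and 0.734 in HCT15 spheres. The balance between the seeds thus differed with culture in opposite directions in the 2 lines.

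These pools were mostly 2 strands of the MIR99B/MIR125A transcript. Over the libraries, miR-99b-5p took 82.3% to 99.6% of the first pool and miR-125a-5p 95.4% to 99.6% of the second. The ratio of these strands therefore shows the same pattern and is not a second observation. In HT29 the ratio of miR-99b-5p to miR-125a-5p was 5.77 in parental cells and 11.5 in spheres, a log2 difference of 0.99 (counting SE 0.018). In HCT15 it was 1.49 in parental cells and 0.642 in spheres, a log2 difference of -1.22 (counting SE 0.022). let-7e-5p, whose hairpin lies between those of miR-99b and miR-125a, stayed closer to miR-99b-5p: the ratio of miR-99b-5p to let-7e-5p was 1.504 and 1.66 in HT29 and 1.997 and 1.66 in HCT15. The ratio of let-7e-5p to miR-125a-5p was 3.83 and 6.89 in HT29 and 0.748 and 0.386 in HCT15. Of the reads of these 3 guide strands, miR-125a-5p had 9.44% in HT29 parental cells and 5.16% in spheres, against 30.9% in HCT15 parental cells and 49.3% in spheres. Its share was thus lower in the spheres of HT29 and higher in those of HCT15, where miR-99b-5p had 46.1% in parental cells and 31.7% in spheres. These ratios are within a library and do not depend on how libraries are scaled, but each rests on 1 library per culture.

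**Figure D2:**
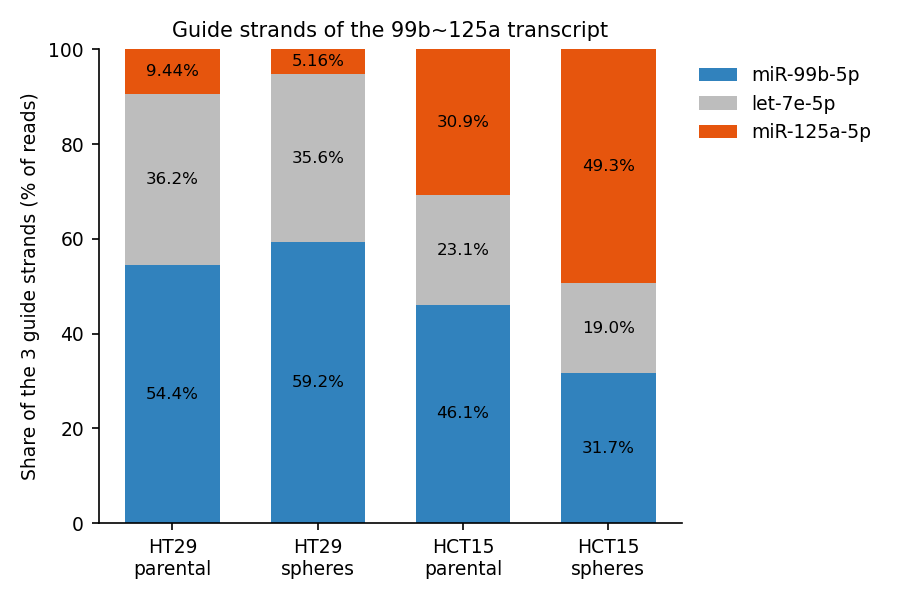
Share of reads, in percent, of miR-99b-5p, let-7e-5p and miR-125a-5p among the guide strands of the MIR99B/MIR125A transcript, 1 bar per library. miR-125a-5p goes from 9.44% to 5.16% between HT29 parental cells and spheres and from 30.9% to 49.3% between those of HCT15.

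Between cultures within HT29, miR-99a-5p and miR-100-5p were the members with the highest ratios. After TMM scaling the log2 ratio of spheres to parental cells was 1.49 for miR-99a-5p (interval 1.21 to 1.81) and 1.38 for miR-100-5p (1.16 to 1.62). It was 0.92 for miR-125b-5p (0.45 to 1.46), 0.87 for miR-99b-5p (0.86 to 0.88) and 0.82 for miR-99b-3p (0.74 to 0.90). miR-125a-3p had 0.20, with an interval that included 0, and miR-125a-5p had -0.12 (-0.16 to -0.09). All 3 miR-99/100 guides thus had positive ratios in HT29, and all 3 kept that sign under every scaling. TMM weighs the HT29 libraries differently from their read totals: with totals, ratios are lower by about 0.58 in HT29 and 0.35 in HCT15, so that miR-125a-5p, at -0.12 here, had -0.71.

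In HT29, 2 of 7 members were at least 2-fold higher in spheres and 0 at least 2-fold lower. Of the 221 miRNAs averaging 50 CPM or more in HT29, 12.7% were 2-fold higher or more and 19.9% were 2-fold lower or more. Both members past that fold, miR-99a-5p and miR-100-5p, had a mean below 50 CPM in HT29, and over 351 miRNAs averaging 10 CPM or more the share higher was 12.5%. The count was 0 with read totals and 5 with the upper quartile. The median ratio was 0.87 over the 7 members and 0.01 over the 221 miRNAs, and at this depth 3 of 7 members had a mean of at least 50 CPM.

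In HCT15 the highest ratio belonged to miR-125a-5p, at 0.96 (interval 0.93 to 0.99), followed by miR-125b-5p at 0.63 (0.49 to 0.77). miR-100-5p had 0.31 and miR-99a-5p 0.26, both of which turned negative with read totals, to -0.04 and -0.09. miR-99b-5p had -0.26 (-0.29 to -0.23), while miR-99b-3p (-0.03) and miR-125a-3p (-0.04) had intervals that included 0. In this line 0 of 7 members were at least 2-fold higher in spheres, against 4% of the 200 miRNAs averaging 50 CPM or more. Likewise 0 of 7 were at least 2-fold lower, against 2% of the 200. The median was 0.26 over the 7 members and 0.09 over the 200 miRNAs. Both miR-125a/b guides had positive ratios in HCT15 under every scaling, from 0.61 to 1.22 for miR-125a-5p and from 0.28 to 0.89 for miR-125b-5p.

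**Figure D3:**
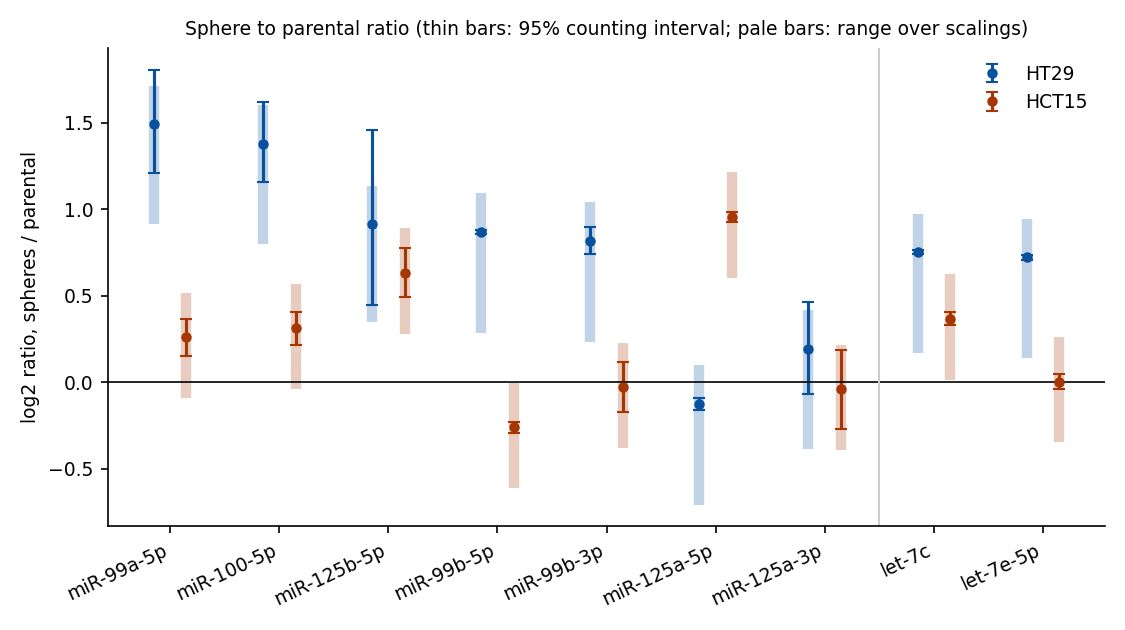
log2 ratio of spheres to parental cells after TMM scaling for the 7 miRNAs and for let-7c and let-7e-5p, in HT29 (blue) and HCT15 (brown), with 95% counting intervals as thin bars and the range over the scalings as pale bars. The miR-99b-5p point is at 0.87 in HT29 and -0.26 in HCT15, and that of miR-125a-5p at -0.12 and 0.96.

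miR-99b-5p and miR-125a-5p therefore had ratios of opposite sign in the 2 lines and opposite to each other in each line after TMM scaling. The HT29 ratio of miR-125a-5p was 0.0999 with the upper quartile and 0.0578 with TMM on the 2 HT29 libraries alone, so under these scalings its sign was the same in both lines and the same as that of miR-99b-5p in HT29. The HCT15 ratio of miR-99b-5p was -0.0522 with DESeq2 size factors and -0.0012 with the upper quartile. An opposite sign was common: 45.6% of the 239 miRNAs averaging 50 CPM or more had one. Ratios at least as high in HT29 and at least as low in HCT15 as those of miR-99b-5p were found for 9 of 239 miRNAs, itself included. Ratios at least as low in HT29 and as high in HCT15 as those of miR-125a-5p were found for 6 of 239, itself included. The difference between the lines was not tested, since each line and culture had 1 library.

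**Figure D4:**
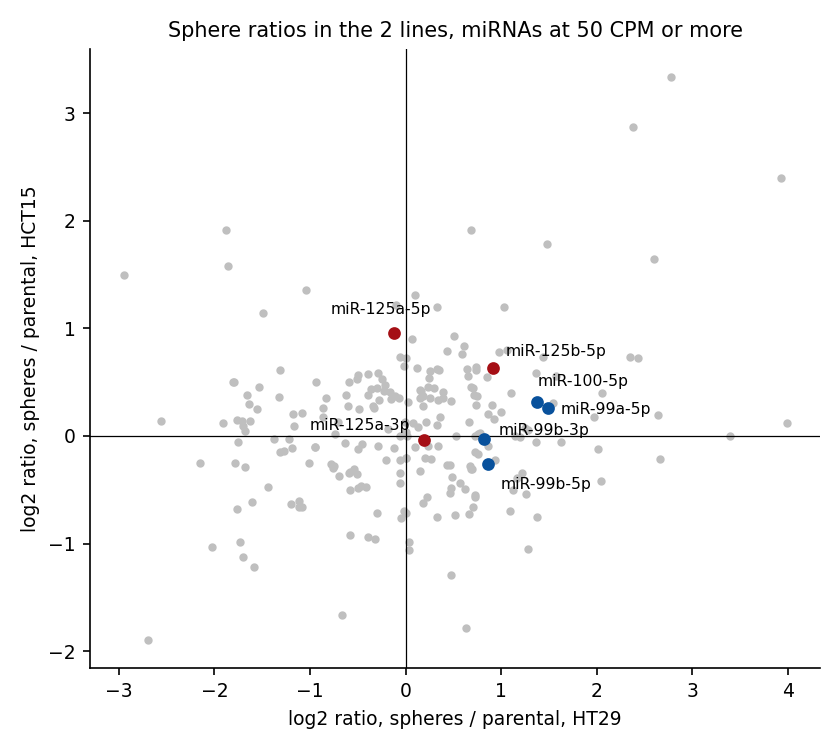
log2 ratio of spheres to parental cells in HT29 (x axis) against HCT15 (y axis) for the 239 miRNAs averaging 50 CPM or more (grey), with the miR-99/100 members in blue and the miR-125a/b members in red. miR-99b-5p lies at lower right (0.87, -0.26) and miR-125a-5p at upper left (-0.12, 0.96).

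Across both lines, spheres were compared with parental cells by limma with cell line as a block, in which the 2 lines are the replicates. All 7 members passed the filter of at least 10 CPM in at least 2 libraries. miR-125b-5p met it in both HCT15 libraries and, at 10.2 CPM, in HT29 spheres, but not in HT29 parental cells, at 7.92 CPM. None had a Benjamini-Hochberg adjusted p under 0.05, against 0% of the 377 miRNAs tested, of which 21 had an unadjusted p under 0.05. The highest fold changes of the members were 0.85 for miR-99a-5p (log2, SE 0.51, limma adjusted p = 0.760), 0.83 for miR-100-5p (SE 0.50, adjusted p = 0.760) and 0.74 for miR-125b-5p (SE 0.41, adjusted p = 0.757), each with a positive ratio in both lines. The other 4 had log2 fold changes of 0.07 to 0.42 and limma adjusted p-values of 0.787 to 0.973. edgeR, DESeq2 and limma-voom on reads called 6, 5 and 8 of the 377 miRNAs, with no member among them. The smallest adjusted p of any member under any setting was 0.649. With 4 libraries this model left 1 residual degree of freedom, and nothing in the labels says that the cultures of a line were repeated.

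Of the 10 other strands fixed for the same transcripts, 9 were listed in all 4 files, and let-7c-3p was not analysed here. With TMM scaling the let-7 guides had sphere ratios of 0.75 and 0.37 (let-7c, chromosome 21), 0.72 and 0.00 (let-7e-5p, chromosome 19) and 0.47 and -0.27 (let-7a-5p, which 2 further hairpins on other chromosomes also encode) in HT29 and HCT15. Of the 6 strands that entered the limma test none passed, with Benjamini-Hochberg adjusted p-values of 0.757 for let-7c, 0.760 for let-7e-3p, 0.781 for let-7e-5p, 0.834 for miR-125b-1-3p, 0.951 for let-7a-5p and 0.987 for miR-100-3p. Of these, miR-125b-1-3p (0.172 and 0.547 CPM in HT29) and miR-100-3p passed the filter through their HCT15 libraries alone. miR-100-3p was listed at 0 in both HT29 libraries, so its result is no comparison across the 2 lines. let-7c was at 14452 and 16246 CPM in HT29 and 4562 and 4612 in HCT15. miR-99a-5p, from the same transcript, had 0.138% and 0.232% of the reads of this pair in HT29 and 11.0% and 10.3% in HCT15. let-7c differs from let-7a-5p, at 71404 and 65881 CPM in HT29, only by G19A, so reads of let-7a with an error there can be counted as let-7c.

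For miR-100 and miR-125b the 3p strand was at or near 0 in HT29 and well above it in HCT15. The hairpins that carry this difference are printed 5′ to 3′ with both mature strands in capitals, with that of miR-99a for comparison.

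MIR100: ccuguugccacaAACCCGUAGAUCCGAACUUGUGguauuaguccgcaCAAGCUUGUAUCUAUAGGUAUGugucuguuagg

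MIR125B1: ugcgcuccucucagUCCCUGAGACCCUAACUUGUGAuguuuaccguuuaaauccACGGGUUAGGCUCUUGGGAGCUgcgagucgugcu

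MIR99A: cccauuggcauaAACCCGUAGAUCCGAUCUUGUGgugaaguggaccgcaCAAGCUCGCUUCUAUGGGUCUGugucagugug

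miR-100-3p, the second capital stretch of MIR100, was listed at 0 in both HT29 libraries and at 160 and 128 CPM in HCT15 parental cells and spheres. Its share of the reads of both miR-100 strands was 19.3% in HCT15 parental cells (exact binomial interval 17.9% to 20.9%) and 16.5% in spheres (14.8% to 18.3%). In HT29 it had 0 of 198 reads in parental cells, which by the limit of 3 reads allows up to 1.52%, and 0 of 762 in spheres, which allows up to 0.394%. miR-125b-1-3p, the second stretch of MIR125B1, had 1 and 7 reads in HT29 and 1132 and 671 in HCT15. In HCT15 parental cells this strand, at 355 CPM, exceeded miR-125b-5p, at 271 CPM, whereas in HCT15 spheres it was at 289 against 329. The 3p strands of both miR-125b hairpins together took 56.8% and 46.7% of all miR-125b reads in HCT15, and 2.13% and 13.3% in HT29, where they rested on 1 and 20 reads.

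The 3p strands of the 2 miR-125b hairpins differ in sequence and were listed apart. miR-125b-2-3p, of the chromosome 21 hairpin, had 4 and 0 reads in HCT15, so miR-125b-1-3p made up 99.6% of 1136 and 100% of 671 such reads. In HT29 spheres 13 of 20 were miR-125b-2-3p, and in parental cells there was 1 read in all. miR-99a-3p was listed at 0 in all 4 libraries, although miR-99a-5p had 1800.5 reads in HCT15 parental cells. let-7a-2-3p, from the hairpin between miR-100 and miR-125b-1, did not exceed 4.32 CPM in any library.

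For the MIR99B/MIR125A transcript the 3p shares were low in both lines. miR-99b-3p took 2.499% and 2.42% of both miR-99b strands in HT29 and 3.96% and 4.62% in HCT15. miR-125a-3p took 1.56% and 1.94% of both miR-125a strands in HT29 and 2.44% and 1.24% in HCT15, so that its share was lower in HCT15 spheres, where miR-125a-5p was highest.

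High 3p shares in HCT15 were not limited to these miRNAs. Of 68 hairpins with both strands listed, at least 50 reads in every library and a mean 3p share below 50%, 12, or 17.6%, had a 3p share at least 10 points higher in HCT15 in both cultures. miR-100 was the 7th of the 68 by the smallest gap between the lines, at 16.5 points. With at least 200 reads in every library the share was 9.43%, 5 of 53 hairpins. miR-100 was not one of these 53, because its lowest library held 198 reads. The median 3p share over the 68 was 1.13% and 1.04% in HT29 and 2.38% and 1.89% in HCT15. miR-125b was not among them because it has 2 hairpins. This count was set after the miR-100 values were seen, and here too the line and the handling of its files cannot be told apart.

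**Figure D5:**
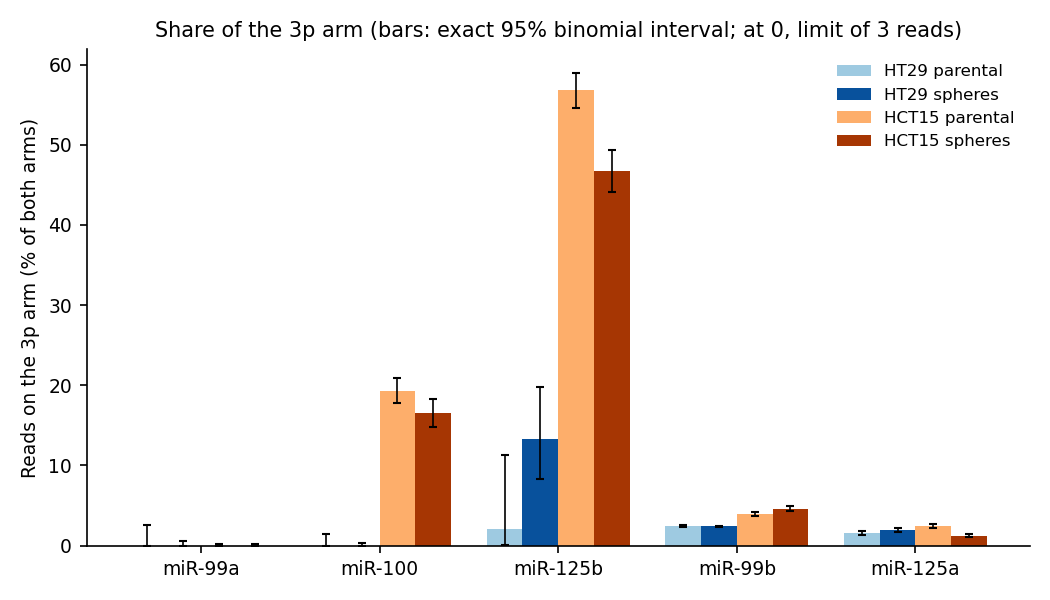
Share of reads on the 3p strand, in percent of the reads of all strands of that miRNA, in each library, with exact 95% binomial intervals and, for shares of 0, a bar up to the limit of 3 reads. miR-100 is at 0 in HT29 and at 19.3% and 16.5% in HCT15, and miR-125b at 2.13% and 13.3% in HT29 and 56.8% and 46.7% in HCT15.

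Likeness of pattern was measured as the Euclidean distance between log2 levels in the 4 libraries, each centred on its own mean, over miRNAs averaging 50 CPM or more. The 3 closest to miR-99a-5p were miR-181c-3p (distance 0.416), miR-100-5p (0.437) and miR-155-5p (0.784), where the median distance to 238 miRNAs was 5.21. The 3 closest to miR-100-5p were miR-99a-5p, let-7b-3p (0.543) and miR-181c-3p (0.821). The 3 closest to miR-99b-5p were miR-532-5p (0.120), let-7a-5p (0.284) and let-7e-5p (0.295), against a median of 2.501. miR-99a-5p and miR-100-5p, which lie on different chromosomes, were thus among each other's closest. They differ only by U16A, so some reads could be assigned to either. miR-99b-5p had let-7e-5p but not miR-125a-5p among its 3. All these distances take in the difference between the lines, which cannot be told apart from the handling of their files.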

How the data were processed

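Per the labels' protocols, each library was prepared with a TruSeq small RNA kit and 1 µg of input total RNA. The HT29 files hold read counts per mature miRNA and the HCT15 files RPKM, as deposited by the authors, per the file headers, which name miRBase release 19. The submitters' processing notes name build hg19. The aligner is not given in the sources used here, nor is the treatment of multi-mapping reads. Sequences and positions are from RefSeq on GRCh38.p14 and host genes from GENCODE 29, matched by name.

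The commonest HCT15 value, 0.162 in parental cells, was taken as 1 read, and 0.527 in spheres as 2 reads. The reason was that odd (120) and even (97) multiples of 0.263 were alike in number in spheres. These were counted only among whole values of at least 5 and under 500 reads. Only 4 names stood at 1 read in spheres against 37 at 2 reads (112 and 51 in parental cells), so a minimum count may have been applied there and a listed 0 may stand for 1 read. The value of 1 read rose slightly with the length of the mature miRNA. Allowing for that, 69.9% of 720 low values in parental cells and 73.2% of 392 in spheres were whole within 0.02 reads. Of the 14 HCT15 values of the 7 miRNAs, 9 were whole and 3 ended in 0.5. A count of 0 allows 3 reads, which is 0.517 (parental) and 0.234 CPM (spheres) for HT29 and 0.940 and 1.29 CPM for HCT15.

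Ratios used TMM scaling (edgeR 4.0.16) over the 1882 shared names and a prior count of 2 reads, with exact conditional binomial 95% intervals. They differ from ratios of the printed CPM: with read totals they are lower by 0.58 in HT29 and 0.35 in HCT15. Poisson and binomial (Clopper-Pearson) intervals were exact. The test across lines was limma (3.58.1, under R 4.3.3), fitted to TMM-scaled CPM on the log2 scale with a pseudocount of 1, with cell line as a block and a variance trend, for miRNAs at 10 CPM or more in 2 libraries; such fold changes understate those of scarce miRNAs. edgeR, DESeq2 1.42.0 and limma-voom on rounded reads were alternatives. Python 3.11.15 and scipy 1.17.1 were used elsewhere.

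The named miRNAs are the 7 members, the strands of the same transcripts, sharers of their seeds, and the 3 miRNAs closest in pattern to the most abundant member of each cluster. The members, lists and tests were chosen with earlier results of these data known.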

Additional observations from a re-analysis of the deposited data

Results flagged for a closer look

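Ratios of opposite sign in the 2 lines, each with a counting interval that excludes 0, drew attention to the MIR99B/MIR125A transcript; with 1 library per line and culture, none of these differences between the lines was tested. The log2 ratio of spheres to parental cells was 0.87 in HT29 and -0.26 in HCT15 for miR-99b-5p, and -0.12 in HT29 and 0.96 in HCT15 for miR-125a-5p. The HT29 value of miR-125a-5p changed sign with the upper quartile and with TMM on that line alone.

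Ratios within a library need no scaling and also changed in opposite directions. The log2 ratio of miR-99b-5p to miR-125a-5p differed between spheres and parental cells by 0.99 in HT29 and -1.22 in HCT15, that of let-7e-5p to miR-125a-5p by 0.85 and -0.95, and that of miR-99b-5p to let-7e-5p by less, 0.15 and -0.26. The log2 ratio of miR-125a-5p to its own 3p strand differed by -0.32 in HT29 and 1.00 in HCT15, where the 3p strand had 191 and 322 reads in HT29 and 447 and 248 in HCT15.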

How the results depend on the processing

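No test within a line was possible because each line and culture had 1 library, and the labels carry no replicate numbers. The test across lines paired spheres with parental cells by cell line, which was its block. The number of members at least 2-fold higher in HT29 spheres was 2, and it was 0 with read totals, 5 with the upper quartile and 5 with TMM on the 2 libraries alone. For HCT15 spheres the number was 0; size factors from DESeq2 gave 1, as did the upper quartile (1). The number at least 2-fold higher in HT29 than in HCT15 in both cultures was 0, and 1 with the HCT15 values as deposited; the number at least 2-fold higher in HCT15 was 5, and 4 with those values. Over all miRNAs, the calls across lines were 0, and 3 without the 10 most abundant miRNAs in the scaling, 7 with no filter on low values, 6 with edgeR, 5 with DESeq2 and 8 with limma-voom; the number of members called was 0 in all of these.

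Signs of the members changed as follows, and the cause was not tested. With read totals, the HCT15 sphere ratios of miR-99a-5p and miR-100-5p were -0.0912 and -0.0399. The HT29 sphere ratio of miR-125a-5p was 0.10 with the upper quartile and 0.0578 with TMM on the 2 libraries. The HT29 to HCT15 ratio of miR-99b-3p in parental cells was 0.79 with the HCT15 values as deposited. Ratios whose counting interval included 0 changed sign too. In HCT15 that of miR-99b-3p was 0.178 with DESeq2 size factors and 0.229 with the upper quartile, and that of miR-125a-3p 0.165 and 0.216. In HT29 that of miR-125a-3p was -0.383 with read totals and -0.0839 without the 10 most abundant miRNAs. Across lines with read totals, miR-99b-5p had -0.16, miR-99b-3p -0.0724, miR-125a-5p -0.051 and miR-125a-3p -0.38, and without the 10 most abundant miRNAs miR-125a-3p had -0.18.

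The share of miR-99b-5p in the sum with miR-125a-5p in HCT15 was 59.9% and 39.1% in parental cells and spheres, and 59.3% and 38.5% from the deposited RPKM, an alternative chosen after seeing the data; with both strands it was 39.9% in spheres. With both strands the miR-125b share of the miR-125a/b reads in HCT15 was 9.86% and 6.69%, over 1.5 times that of the 5p strands. Other pseudocounts and prior counts changed no sign and no number of members or calls.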

Other observations

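let-7e-3p, the minor strand of the hairpin between miR-99b and miR-125a, was at 100.2 CPM in HT29 parental cells (582 reads) and 19.6 in HT29 spheres (251 reads), and at 54.9 and 47.7 CPM in those of HCT15. Its share of both let-7e strands was 1.24% and 0.223% in HT29 and 1.29% and 1.43% in HCT15. The guide let-7e-5p was at 7969 and 8780 CPM in HT29, so the ratio of the guide to the minor strand was 79.5 in HT29 parental cells and 448 in spheres. In HCT15 it was 76.3 and 68.9. The HT29 sphere library was thus the one that stood apart for this strand.

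Other hairpins, named after their values were seen, showed larger gaps in 3p share between the lines than miR-100. For miR-671 the 3p share was 1.30% (parental) and 1.04% (spheres) in HT29, against 96.3% and 93.0% in HCT15. For miR-106b it was 6.73% and 11.6% in HT29 and 72.5% and 66.9% in HCT15.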
